A study of Mus musculus with 7 samples.

Results

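Open chromatin on the 19 autosomes was compared between wild-type female mouse embryonic stem cells (mESC) and wild-type neural progenitor cells (NPC). The members are all chromosome 1 to 19 peaks of the reproducible-peak lists deposited for these lines, 27538 of 28907 peaks in mESC and 39692 of 41126 in wild-type NPC, or 67230 of 70033 in all. These lists hold peaks found in both libraries of a line at an irreproducible discovery rate (IDR) under 0.05 and are called IDR lists here. Each line also had 1 list per library, and these 4 library lists give the spread between replicates.

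ATAC-seq reads open chromatin through the hyperactive Tn5 transposase, which inserts sequencing adapters where DNA is not wrapped in nucleosomes or otherwise covered. Open sites are mostly promoters, enhancers and other bound regulatory elements. Promoters of widely used genes tend to be open in many cell types, while enhancers are often open in a single lineage. Embryonic stem cells hold the open sites of the pluripotency network, and neural progenitors, which divide and can form neurons and glia, hold those of the neural lineage.

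The series has 7 samples, 1 per group. Per the labels, the mESC (line F1216, serum and LIF), the wild-type NPC (line C2, N2/B27 medium with 10 ng/mL FGF and EGF) and a deltaFT NPC line (sgdgb2, same medium) are female and stem from a cross of 129S1 and Cast, so reads over strain differences can be given to an allele. The deltaFT deletion removes an X-linked boundary region. The other 4 samples are male J1 mESC with an inducible Xist on the X (TXY), wild type or lacking the A repeat (deltaRepA), untreated (no dox) or given 2 ug/mL doxycycline for 48 hours (plus dox). The mESC sample carries a source label that names neural progenitors, against its title and its growth in LIF, and is treated as mESC. For the dox-treated TXY samples, the description field points to an untreated file in conflict with title and treatment label, which were used here.

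Autosomal peaks held 6176798 reads in mESC and 10724324 in wild-type NPC, of which 40.1% and 38.8% were assigned to an allele. The median peak held 152 reads in mESC and 169 in wild-type NPC. The library lists held 71083 and 63981 autosomal peaks in mESC and 80110 and 94116 in wild-type NPC. Both NPC libraries thus gave more peaks than both mESC libraries. Each line is a single sample with a pair of libraries, so no p-value was computed between lines: an exact two-sided permutation of 2 libraries against 2 cannot go below 0.333. Whether the libraries came from separate cultures was not given in the sources used here, and the spread between them may be technical. No annotation of the mm9 build was used, so peaks are given by position and not by gene, and the marker genes of each cell type were not analysed here.

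The open sites of stem cells and progenitors overlapped in part. Between the IDR lists 12739 mESC peaks, or 46.3% (95% interval 45.7% to 46.9%), overlapped a wild-type NPC peak by at least 1 bp, and 12592 wild-type NPC peaks, or 31.7% (31.3% to 32.2%), overlapped an mESC peak. With the 27538 strongest peaks of each line by reads per bp the shares were 39.8% and 39.0%, so the lower NPC share went with the longer NPC list. Intervals of shares are exact Clopper-Pearson intervals. They and the intervals of read ratios further on cover counting error only. Both are too narrow for a difference between lines, because each line is 1 sample and its peaks are not replicates of it. For the read ratios, PCR reads that carry no molecular identifier also do not stand for separate molecules.

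The overlap depended on how strong a peak was, so each library list was split into deciles by the authors' −log10 p. Among the strongest decile, a library of the same line held 99.98% or more of the peaks. A library of the other line held 74.6% to 78.4% of the strongest mESC decile and 62.1% to 68.0% of the strongest NPC decile. Weak peaks were poorly reproduced even within a line. In the weakest decile, 24.3% to 36.5% of mESC peaks were found in the other mESC library, next to 14.6% to 22.4% in an NPC library. The weakest NPC decile gave 29.1% to 50.8% within the line and 10.6% to 13.4% in an mESC library. In every decile of both lines the values between lines lay below those within the line. In decile 7 of the NPC lists 90.5% to 97.0% of peaks recurred within the line and 31.3% to 33.6% in an mESC library.

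**Figure D1:**
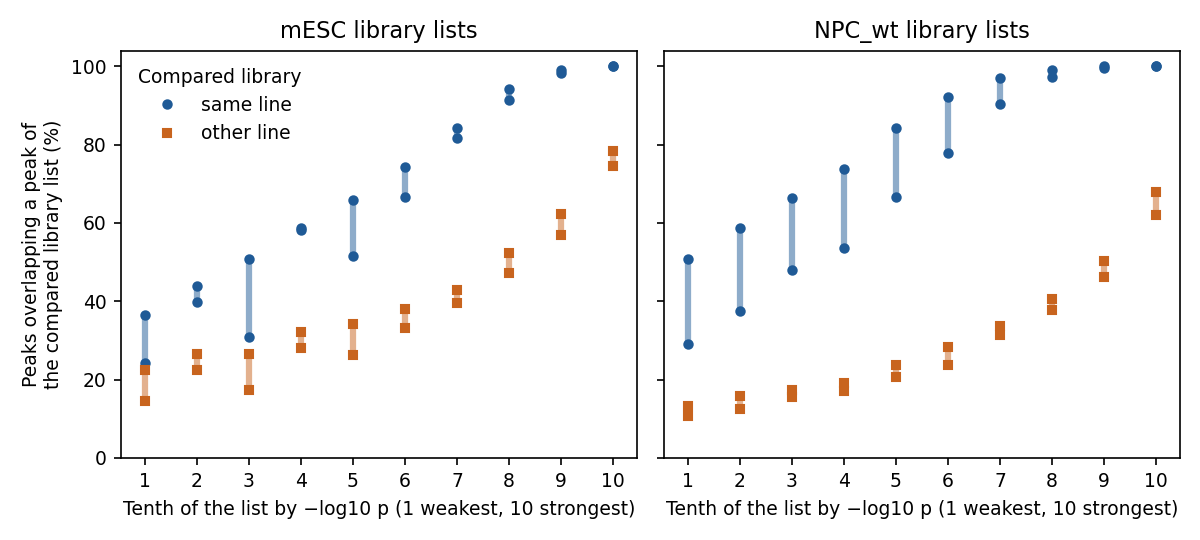
Share of library-list peaks (y axis, %) that overlap a peak of another library list, by decile of the list ranked on −log10 p (x axis); each bar joins the lowest and highest share over the library pairs, blue for the library of the same line and orange for libraries of the other line. In the strongest decile the same line reached 99.98% or more, while the other line reached 74.6% to 78.4% for mESC and 62.1% to 68.0% for wild-type NPC.

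Peaks of 1 line that overlapped no peak in any list of the other line, IDR or library, are called one-line peaks. There were 11326 mESC-only peaks, 41.1% of the mESC list, and 20837 NPC-only peaks, 52.5% of the NPC list. A further 3473 mESC peaks (12.6%) and 6263 NPC peaks (15.8%) were missing from the other IDR list but present in at least 1 of its library lists.

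One-line peaks were shorter and held fewer reads than peaks in both IDR lists. In mESC the median one-line peak had 116 reads over 317 bp, and the median peak in both lists 229 reads over 482 bp. In wild-type NPC the medians were 134 reads over 354 bp and 319 reads over 555 bp. One-line peaks made up 26.8% of autosomal peak reads in mESC and 36.2% in wild-type NPC, both below their share of peaks. When peaks were ranked by reads per bp within each line, the one-line share went from 63.0% in the lowest decile to 18.01% in the highest in mESC. In wild-type NPC it went from 76.2% to 24.3%, so even among the most densely read NPC sites some had no counterpart in any mESC list.

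The other 5 samples took no part in the choice of one-line peaks and show whether these recur in cells of the same kind. The mESC-only peaks were found again in the male stem cells and seldom in the second progenitor line. The share was 92.1% in the untreated and 87.0% in the dox-treated TXY wild type, and 90.8% and 91.5% in the untreated and treated deltaRepA cells. All 4 TXY lists held 9118 of the 11326, or 80.5% (79.8% to 81.2%). In deltaFT NPC the IDR list held 2.42% of them and the library lists 8.58% and 5.89%, and 10166 (89.8%) overlapped no deltaFT peak. Of the mESC-only peaks 8070, or 71.3%, were in all 4 TXY lists and in no deltaFT list, whereas 9 were in at least 1 deltaFT list and in no TXY list. Among mESC peaks in both IDR lists these shares were 1.92% and 0.11%.

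The NPC-only peaks showed the opposite order. The deltaFT IDR list held 50.9% of them, the library lists held 78.6% and 72.7%, and 17206 of 20837 (82.6%) were in at least 1 deltaFT list. TXY lists held 16.7% to 23.6% each, 33.6% were in at least 1 of them, and 8.42% were in all 4. Of the NPC-only peaks 11045, or 53.0%, were in at least 1 deltaFT list and in no TXY list, and 124 (0.595%) had the reverse pattern of all 4 TXY lists and no deltaFT list. Among NPC peaks in both IDR lists these shares were 0.12% and 1.81%. The shares in the other samples depend on list length: the TXY lists held 123996 to 140048 autosomal peaks over 53.4 to 63.7 Mb, and the deltaFT library lists 83362 and 70091 peaks over 24.0 and 20.1 Mb. The larger share of NPC-only peaks was in the shorter deltaFT lists, and that of mESC-only peaks in the longer TXY lists. Shares at equal list length are not given here, and the part of list length in them was not tested. Peaks in both IDR lists were found almost everywhere, with 90.4% to 99.7% of the mESC ones in each of the 7 lists.

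**Figure D2:**
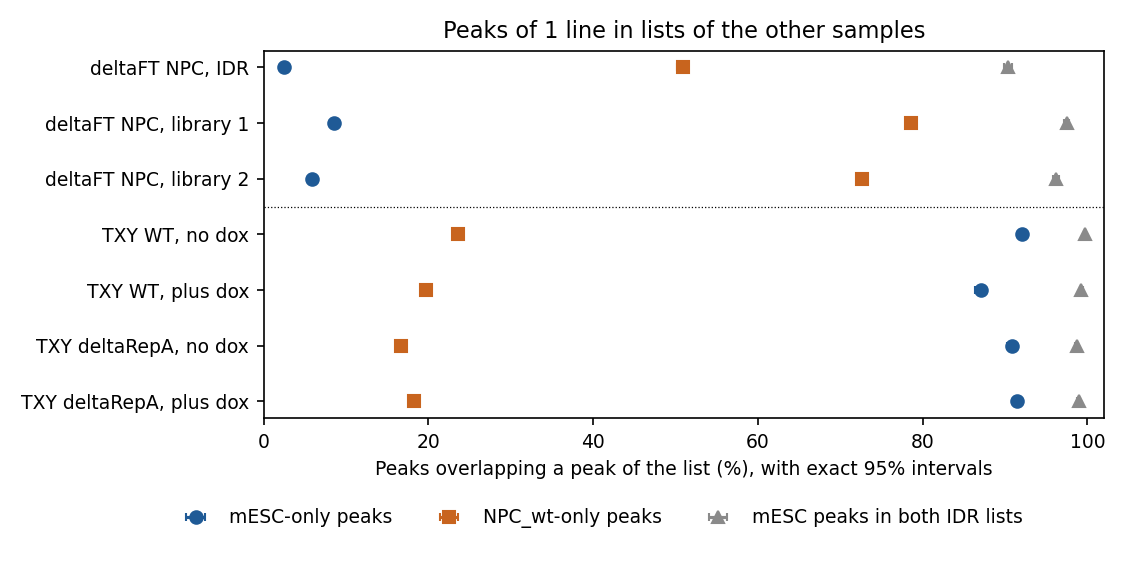
Share of peaks (x axis, %, points with exact 95% intervals, mostly narrower than the symbol) that overlap a peak in each list of the 5 samples not used to choose them (y axis): mESC-only peaks as blue circles, NPC-only peaks as orange squares and mESC peaks of both IDR lists as grey triangles. The mESC-only peaks reach 87.0% to 92.1% in the TXY lists and 2.42% to 8.58% in the deltaFT lists, and the NPC-only peaks 16.7% to 23.6% and 50.9% to 78.6%.

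Progenitor peaks were slightly longer. The median length was 377 bp in the mESC IDR list and 402.5 bp in the NPC list, and the middle 50% of peaks ran from 256 to 548 bp and from 260 to 572 bp. The library lists, whose peaks are narrower, had medians of 180 and 193 bp in mESC and 203 and 206 bp in wild-type NPC, so the lines did not overlap. Long peaks were about as frequent in both: 509 mESC peaks (1.85%) and 771 NPC peaks (1.94%) spanned 1 kb or more. In all, the peaks covered 11.7 Mb in mESC and 17.5 Mb in wild-type NPC.

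To compare lengths at the same site, each mESC peak was paired with the NPC peak of largest overlap, which gave 12739 matched pairs, 11261 of them 1 to 1. The median was 482 bp in mESC and 575 bp in wild-type NPC, and the NPC peak was the longer in 64.6% of pairs. Some NPC peaks entered more than 1 pair, as the pairs held 12200 distinct NPC peaks. In the 1 to 1 pairs the medians were 492 and 556 bp, and the NPC peak was the longer in 63.5%. Within a pair the median difference was 52 bp over all pairs. In library lists matched in the same way, the NPC peak was the longer in 62.6% to 67.5% of pairs, and between libraries of 1 line the library 2 peak was the longer in 54.6% (mESC) and 59.6% (NPC). The difference between lines was thus larger than that between libraries, by 3 percentage points at the nearest values. Reads in peaks moved the same way, at 10724324 in wild-type NPC and 6176798 in mESC. This total also depends on the number and length of peaks. Sequencing depth was not compared, and its part in peak length was not tested.

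Read density was compared in the same 12739 pairs, as reads per bp of the peak divided by the line's reads in all autosomal peaks. On this scale most shared sites had a lower density in wild-type NPC, with a median log2 ratio of NPC over mESC of -0.46 and a middle 50% from -0.87 to -0.06. The density was at least 2-fold higher in mESC in 2397 pairs (18.8%) and at least 2-fold higher in wild-type NPC in 140 (1.1%). With reads per peak in place of reads per bp, the median was -0.23 and the counts were 2477 and 1192, so the number of NPC-higher pairs in particular depended on the correction for length. Matched peaks held 64.5% of mESC reads and 51.8% of NPC reads, and the part of this in the common shift was not tested. Pairs were also centred on their own median, on the scale of reads per bp. Then 727 pairs (5.71%) were at least 2-fold higher in mESC and 645 (5.06%) in wild-type NPC, so NPC had 47.0% of the calls in place of 5.52% on the scale of total reads. The remaining 11367 pairs differed by less than 2-fold after centring. The counts cover the IDR peaks of a line as a whole, so single pairs have no replicate check.

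**Figure D3:**
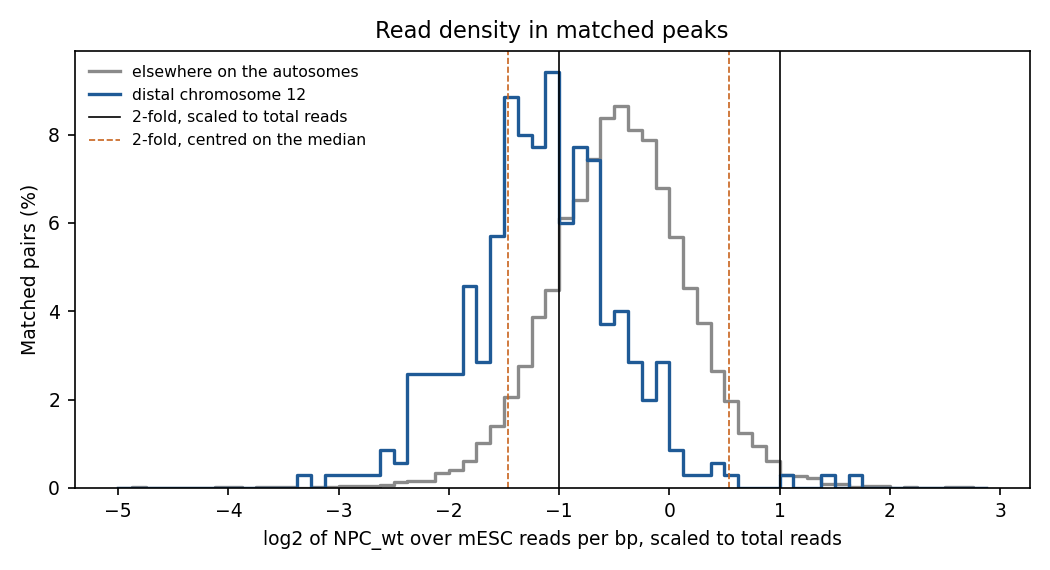
Distribution of the log2 ratio of NPC over mESC read density in matched pairs (x axis, scaled to total autosomal peak reads; y axis, % of pairs), in grey for pairs elsewhere on the autosomes and in blue for the 350 pairs of distal chromosome 12, from 75 Mb to its end; solid lines mark 2-fold on this scale and dashed lines 2-fold after centring. The median of all pairs is -0.46, and the distal chromosome 12 median is -1.13.

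The 5 pairs with the largest excess in wild-type NPC, among those with at least 200 reads in the line where they were higher, were strong peaks in progenitors that sat on narrow, weak peaks in mESC. At chromosome 6, 112160390 to 112160993, wild-type NPC had 1663 reads and the mESC peak inside it 75. Per kb and per 1000000 autosomal peak reads this was a density of 256.7 in wild-type NPC and 39.4 in mESC, a 6.51-fold difference (counting interval 5.17 to 8.32). The deltaFT line had a density of 182 there. At chromosome 17, 66051210 to 66051996, the densities were 258 in wild-type NPC, 43.1 in mESC and 170.3 in deltaFT NPC, on 2176, 95 and 1343 reads. At chromosome 7, 75893677 to 75894566, they were 352, 74.9 and 195.5, and the NPC peak was 3.68 times as long as its mESC match.

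The pair at chromosome 10, 105075710 to 105076554, differed most in length, with an NPC peak of 845 bp and an mESC peak of 131 bp. It held 1722 reads in wild-type NPC and 33 in mESC. At chromosome 3, 133417853 to 133418300, wild-type NPC had 723 reads and mESC 62, a 4.39-fold higher density (3.39 to 5.79). In all of these 5 pairs the deltaFT density lay between the mESC and the wild-type NPC value and above 2 times the mESC value.

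The 5 pairs with the largest excess in mESC had hardly any reads that could be given to an allele. The first lay at chromosome 18, 40467650 to 40468005, with 1674 reads in mESC and 91 in wild-type NPC, a 29.0-fold higher density in mESC (23.5 to 36.2), and no allelic read in either line. At chromosome 15, 74916680 to 74917511, mESC had 12140 reads and wild-type NPC 1230, a 16.8-fold higher density (15.8 to 17.8), again with no allelic read. The others lay at chromosome 5, 147072517 to 147072981 (4174 and 465 reads), chromosome 11, 108872916 to 108873468 (5090 and 660 reads) and chromosome 8, 15519795 to 15520127 (918 and 110 reads). At all 5 the deltaFT density was within 2 times that of wild-type NPC and far below that of mESC: on chromosome 18 it was 37.4, next to 26.3 in wild-type NPC and 761 in mESC, and on chromosome 15 it was 196, next to 141 and 2362.

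Peaks with many reads and none assigned to an allele were a larger part of the mESC reads. Peaks with at least 500 reads and no allelic read numbered 114 in mESC, with 5.37% of autosomal peak reads, and 257 in wild-type NPC, with 2.64%. A single stretch of chromosome 17, at 39979981 to 39985746, had 3 mESC peaks with 150965 reads, or 2.44% of the total. In wild-type NPC 4 peaks of that stretch held 26603 reads (0.248%) and in deltaFT NPC 3 held 45087 (0.416%). The stretch had no allelic read in any of these lines. Without the peaks that had no allelic read in the totals, the median log2 ratio of matched pairs was -0.50 in place of -0.46. How reads that map to several places were handled was not given in the sources used here, and its part in these values was not tested.

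With at least 10 allelic reads asked of each line, a limit chosen after the values above were seen, the 5 pairs highest in mESC were others. At chromosome 16, 57391360 to 57391847, mESC had 4788 reads and wild-type NPC 604, a 12.1-fold higher density (11.1 to 13.2). Most of its reads were given to neither allele. Those that were came almost entirely from the second-listed allele in both lines. There were 20 first-allele and 486 second-allele reads in mESC and 1 and 66 in wild-type NPC. At chromosome 16, 17222316 to 17222635, the densities were 577 in mESC and 54.5 in wild-type NPC. The second-listed allele again held nearly all allelic reads, 1016 of them against 9 in mESC. At chromosome 10, 96185169 to 96185475, mESC had 371 reads and wild-type NPC 52. At chromosome 5, 13982297 to 13983019, there were 866 reads in mESC with 163 and 179 on the alleles, 98 in wild-type NPC, and no peak in the deltaFT IDR list. The last lay in distal chromosome 12, at 118285861 to 118286671, with 1359 and 183 reads. On the NPC side the same limit kept the chromosome 17, 10 and 3 pairs.

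Chromosomes differed in how many more peaks they had in progenitors. The ratio of NPC to mESC peaks was 1.07 to 1.67 on single autosomes, and was divided by the ratio over all 19 to give a relative ratio. Chromosome 12 had the lowest, 0.740 with 1688 mESC and 1801 NPC peaks, followed by chromosome 11 at 0.825 and chromosome 9 at 0.875. Chromosome 15 was the highest at 1.16 with 1038 and 1734 peaks, and chromosomes 3 and 16 followed at 1.16 and 1.14. The 4 pairs of library lists gave 0.776 to 0.846 for chromosome 12 and 0.852 to 0.925 for chromosome 11, and 1.07 to 1.11, 1.09 to 1.17 and 1.097 to 1.14 for chromosomes 15, 3 and 16. These chromosomes therefore stood on the same side of 1 in every library pair. The library pairs lay nearer to 1 than the IDR lists on chromosomes 12, 11 and 15.

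**Figure D4:**
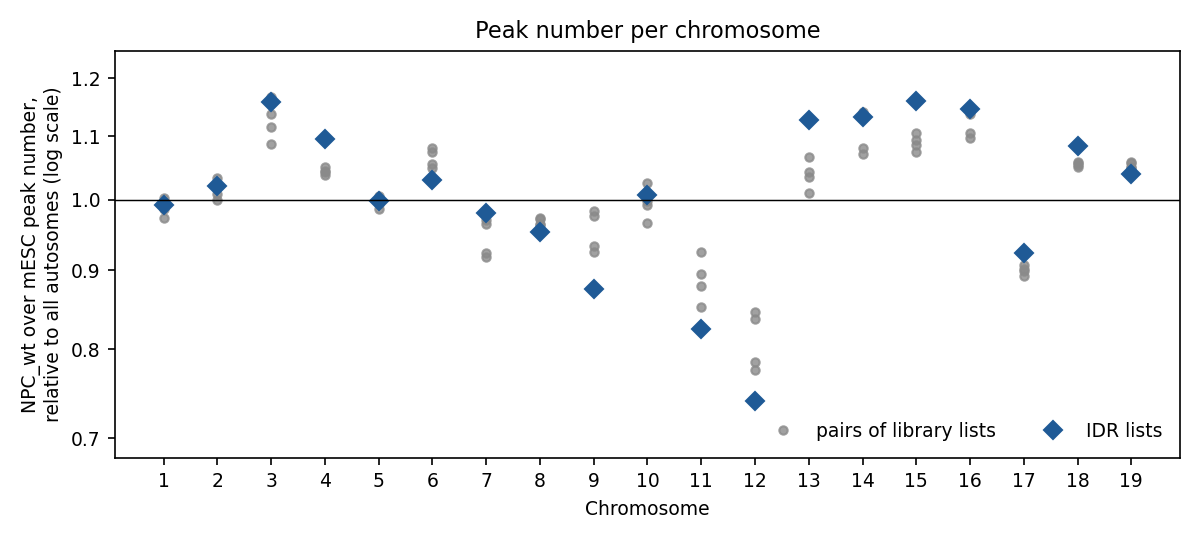
Ratio of NPC to mESC peak number on each autosome (x axis) divided by the ratio over all autosomes (y axis, log scale); blue diamonds are the IDR lists and grey points the 4 pairs of library lists. Chromosome 12 is the lowest, at 0.740 in the IDR lists and 0.776 to 0.846 in the library pairs.

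The low value of chromosome 12 came from its distal part. From 75 Mb to the end, a border set after the data were seen, mESC had 1204 peaks and wild-type NPC 907, a relative ratio of 0.523 (0.538 to 0.630 in the library pairs), while the part before 75 Mb had 484 and 894 peaks and a ratio of 1.28 (1.22 to 1.28). In matched pairs the median centred log2 ratio was -0.67 in the distal part, over 350 pairs, and -0.03 before it, over 238. Alleles were unequal in the same part and in mESC alone among the lines compared: the first-listed allele held 25.02% of distal allelic reads in mESC and 50.3% in wild-type NPC, and 48.3% and 53.2% before 75 Mb. All 10 windows of 5 Mb from 75 Mb onwards lay between 22.8% and 28.1% first-allele reads in mESC. The deposited columns do not name the strain of either allele. With 1 line, a property of the F1216 cells in this part and a difference between stem cells and progenitors cannot be told apart. In the other samples the distal part had a relative ratio of deltaFT NPC over TXY peaks of 0.749 to 1.13, over 8 pairs of lists, with values on both sides of 1. The part before 75 Mb had 1.101 to 1.41 in the same pairs of lists, a range that lay mostly above the distal one.

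Along the autosomes peak numbers differed in both directions at the scale of 1 Mb. Of 1986 windows with at least 10 peaks over both lines, 306 (15.4%) had a relative ratio at least 2-fold higher in wild-type NPC and 133 (6.7%) at least 2-fold higher in mESC. The direction was the same in all 4 library pairs in 288 of the 306 and in 117 of the 133, and 81 and 36 of them were past 2-fold in every library pair. The IDR lists that chose the windows hold peaks found in these same libraries, so this is not an independent check. The 4 pairs also reuse the same 2 libraries of each line. By number, chromosome 3 had most windows higher in NPC, 27 of 130, and chromosome 12 most windows higher in mESC, 20 of 94, of which 19 were distal. The balance between the directions depended on the libraries. With mESC library 1 the numbers were 195 NPC-higher and 189 mESC-higher windows against NPC library 1, and 153 and 203 against NPC library 2, so the excess of NPC-higher windows was lost or turned around. With mESC library 2 they were 320 and 149, and 271 and 161. Reads in peaks went past 2-fold the same way in 208 of the 306 and 82 of the 133. These reads lie in the same IDR peaks whose number chose the windows. A window without peaks in 1 line has no reads there by construction, so the reads are no separate support.

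The 5 windows furthest towards wild-type NPC had no mESC peak in the IDR list. They lay at 47 to 48 Mb of chromosome 7 (18 NPC peaks), 58 to 59, 47 to 48 and 51 to 52 Mb of chromosome 5 (14, 13 and 12 peaks) and 42 to 43 Mb of chromosome 3 (12 peaks). The mESC library lists were not empty there: the chromosome 7 window held 13 and 6 peaks in mESC and 40 and 46 in wild-type NPC. Relative ratios of the library pairs were 2.67 to 5.32 on chromosome 7 and 3.40 to 21.6 on chromosome 3, where the mESC libraries held 6 peaks and 1. The chromosome 5 windows gave 3.44 to 4.42, 3.54 to 9.17 and 3.52 to 4.15.

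The 5 windows furthest towards mESC held many stem cell peaks and at most 1 NPC peak. At 115 to 116 Mb of chromosome 12 there were 34 mESC peaks and 1 NPC peak, and 73 and 84 against 7 and 6 peaks in the library lists. Neighbouring windows of chromosome 4, at 145 to 146 and 146 to 147 Mb, had 10 and 11 mESC peaks and no NPC peak, with 30 and 28 and then 41 and 40 peaks in the mESC libraries against 2 to 4 in the NPC libraries. The window at 15 to 16 Mb of chromosome 2 had 10 and 0, and that at 44 to 45 Mb of chromosome 8 had 9 and 1. In the library pairs the relative ratio was at most 0.190 in each of these 5 windows. Outside chromosome 12, mESC alleles were both read in them, for example 680 first-allele and 527 second-allele reads on chromosome 8.

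Whether the same windows differ between other progenitors and other stem cells was measured in the deltaFT library lists over the TXY lists, which share no sample with the lines compared. To offset the longer TXY lists, as many of their strongest peaks were used as the deltaFT list held. The mESC-higher windows differed from the rest: 65 of the 133 (48.9%) lay below 1 in all 8 pairs of lists, against 458 of all 1986 (23.1%), and their median ratio was 0.802 against 1.08. This did not extend to the 19 windows of distal chromosome 12, where 4 (21.1%) lay below 1 in all pairs and 4 above, while elsewhere 61 of 114 (53.5%) lay below. The NPC-higher windows did not stand out, with 112 of the 306 (36.6%) above 1 in all 8 pairs against 731 of 1986 (36.8%) and a median of 1.07. With all TXY peaks the mESC-higher windows gave 60 below 1 (45.1%, against 25.7% of all windows). The NPC-higher ones then gave 107 above 1 and 107 below (35.0% each, against 48.5% and 25.7%).

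In the 5 named mESC windows the ratio of deltaFT to TXY peaks ranged from 0 to 0.200 over all pairs at equal list length. The numbers of TXY peaks that follow are those of the full lists, which are longer than the deltaFT lists. The chromosome 8 window was the clearest, with 72 to 100 peaks in the TXY lists and 1 and 0 in the deltaFT library lists. The chromosome 4 window at 145 to 146 Mb had 49 to 54 and 1 in each. The chromosome 12 window at 115 to 116 Mb, which lies in the part with unequal mESC alleles, had 88 to 136 peaks in the male lines, where that imbalance was not measured, and 9 and 7 in deltaFT. Of the 5 named NPC windows, the chromosome 7 window ranged from 0.857 to 2.00 and the 47 to 48 Mb window of chromosome 5 from 0.4 to 2.00, both on either side of 1. The chromosome 3 window also lay on either side, at 0.714 to 1.67. The 58 to 59 Mb window of chromosome 5 was above 1 in all 8 pairs, at 1.13 to 3.6, and the 51 to 52 Mb window ranged from 1 to 5. Whole chromosomes also differed in these other samples, for example chromosome 1, where none of the named windows lay. Its relative ratio of deltaFT over TXY peaks was 0.533 to 0.623. The part of such differences in the window counts was not tested.

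**Figure D5:**
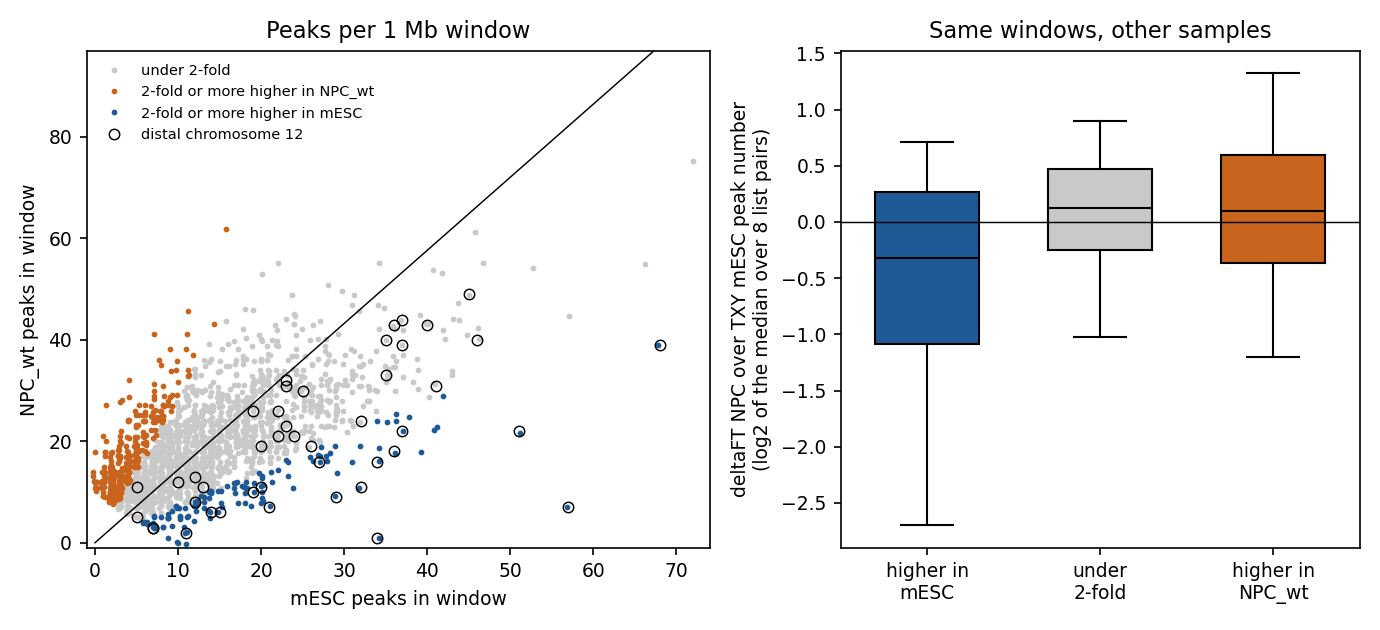
Left, peaks per 1 Mb window in mESC (x axis) and wild-type NPC (y axis), 1 point per window, slightly jittered, with the autosome-wide ratio as a line, windows past 2-fold in colour and distal chromosome 12 circled. Right, log2 ratio of deltaFT NPC over TXY mESC peak number in the same windows at equal list length (median over 8 list pairs; boxes show quartiles, whiskers the 5th and 95th percentiles); the median ratio is 0.802 in mESC-higher windows, 1.09 in those under 2-fold and 1.07 in NPC-higher ones.

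Peaks lay close together in both lines. The median gap between neighbouring peaks was 29.2 kb in mESC and 25.04 kb in wild-type NPC, and 34.0 kb when as many of the strongest NPC peaks were taken as mESC had. At equal number, 23.5% of mESC peaks and 20.3% of NPC peaks lay in clusters, defined as runs of at least 3 peaks with gaps of at most 0.0125 Mb. The library lists, which differ in length, put 46.4% and 49.5% of mESC peaks and 48.5% and 55.4% of NPC peaks in clusters, so the lines overlapped.

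One-line peaks formed 336 clusters in mESC, with 1137 of 11326 peaks (10.0%), and 802 in wild-type NPC, with 2727 of 20837 (13.1%). Over all IDR peaks 23.5% and 26.4% lay in clusters. The order of the lines depended on list length: among the 11326 strongest NPC-only peaks, as many as the mESC-only ones, 893 (7.88%) formed 265 clusters, fewer than in mESC. Distal chromosome 12 held 43 of the mESC clusters (12.8%) and 26 of the NPC clusters (3.24%), next to 6.66% and 2.99% of the clusters of all IDR peaks. Clusters of 5 or more one-line peaks numbered 29 in mESC and 66 in wild-type NPC.

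The mESC cluster with most one-line peaks lay at 87803983 to 87845472 of chromosome 12 and had 11 within 41.5 kb. They held 4012 reads, 131 to 1205 per peak, and the strongest lay at 87842513 to 87843157. The NPC library lists had 1 peak each in this span and the NPC IDR list none. Of the 11 peaks, 9 were found in each TXY list and 0 in any deltaFT list. The first-listed allele held 22.7% of its allelic reads, as in the rest of distal chromosome 12. The second cluster, at 84846494 to 84887362 of chromosome 1, had 8 one-line peaks with 1605 reads, of which the first-listed allele held 43.8%. All 8 were found in each TXY list and none in deltaFT.

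The third and the fourth mESC clusters were also in distal chromosome 12, at 77968656 to 78011650 and 111709535 to 111743573, with 6 one-line peaks each and 2047 and 1652 reads. The fifth, at 174426280 to 174445986 of chromosome 1, had 6 peaks with 1027 reads, and 5 or 6 of these were in each TXY list. The deltaFT library 1 list held 1 of them and the other deltaFT lists 0. Like the second cluster it lies on chromosome 1, whose relative ratio of deltaFT over TXY peaks was 0.533 to 0.623. The part of this in these 2 clusters was not tested. Without distal chromosome 12 the largest mESC cluster had 8 one-line peaks.

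The NPC clusters held up to 7 one-line peaks. The one with most reads among those of 7 lay at 150503357 to 150540306 of chromosome 4, with 1887 reads, and its strongest peak, at 150539561 to 150540306, had 901. The deltaFT IDR list held 5 of the 7 and each deltaFT library list 6, and the TXY lists 0 or 1. At 87759461 to 87791067 of chromosome 17, 7 peaks held 1621 reads, and 6 of them were in each deltaFT list. No list of the F1216 mESC had a peak in the span, and the TXY lists held 1 or 2 of the 7. The clusters at 36638157 to 36664397 of chromosome 1 and 26469073 to 26500389 of chromosome 8 had 7 peaks each with 984 and 863 reads. The deltaFT lists held 5 of the former and 2 to 4 of the latter. At 152196632 to 152231188 of chromosome 5, 6 peaks held 2410 reads, and all 6 were in each deltaFT list and 1 in each TXY list. Alleles were near balance in the NPC clusters, with 42.4% to 54.1% first-allele reads.

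Outside chromosome 12 the first-allele share of whole chromosomes was 47.3% to 51.1% in mESC. In wild-type NPC it ranged from 43.6% on chromosome 19 to 57.6% on chromosome 11, with 54.9% on chromosome 18. Shorter stretches departed further from balance. In windows of 5 Mb with at least 5 peaks of 10 or more allelic reads in each line, 15 of 498 mESC windows and 17 of 498 NPC windows lay outside 40% to 60% first-allele reads. Of the 15 mESC windows 10 were on chromosome 12, and of the 17 NPC windows none. In wild-type NPC chromosome 11 held several, from 60.1% at 5 to 10 Mb to 63.8% at 45 to 50 Mb, where mESC had 55.2% and 52.7%. Chromosome 18 was similar, with 62.8% at 5 to 10 Mb in wild-type NPC and 50.2% in mESC. Other NPC windows outside the range lay at 64.7% on chromosome 1, 29.9% and 37.4% on chromosome 8, 60.1% on chromosome 10 and 38.6% on chromosome 19. The lowest NPC value was 12.99% at 0 to 5 Mb of chromosome 17, where mESC had 51.8%. On chromosomes 11 and 17 the median centred log2 ratio of read density in these stretches was between -0.36 (chromosome 11, 5 to 10 Mb) and 0.50 (chromosome 11, 35 to 40 Mb). On chromosome 18 it ran from -0.04 (15 to 20 Mb) to 0.62 (0 to 5 Mb), next to -1.25 to -0.17 in distal chromosome 12.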

How the data were processed

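Values come from the deposited ATAC-seq peak lists. Per the submitters' processing notes, the authors used cutadapt, Bowtie2 and MACS2 with build mm9; versions, duplicate handling and any Tn5 shift were not given in the sources used here. Each deposited IDR list holds the authors' raw counts of reads per peak, in all and per allele, from an unstated number of libraries, and the IDR as a fraction. The deposited −log10 p of the MACS2 lists, of which their deposited score is a multiple, ranked peaks within a list, and the deposited fold enrichment (a ratio over background) was not compared between lists.

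Overlaps, matches, windows and clusters were computed with scipy 1.17.1, pandas 2.3.3, numpy 2.4.6 and python 3.11.15, drawn with matplotlib 3.10.9 and tested on simulated lists. Shares carry exact 95% intervals. No other column of per-sample values was used. Named pairs, windows and clusters are the 5 most extreme per direction (pairs with at least 200 reads in the higher line; clusters with most one-line peaks, ties by reads). The members, lists and rules were chosen with earlier results of these data known. Alternatives were other overlaps, read minimums, scalings, folds, window sizes, gaps and single libraries. Positions are 1-based mm9.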

Additional observations from a re-analysis of the deposited data

How the results depend on the processing

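No paired analysis was possible because each group is 1 sample and the results come from no test. Peaks at the fixed marker genes were not run, since no annotation of build mm9 was used here. The overlap of the mESC IDR list was 46.3% and became 37.0% with at least 50% of each peak, 47.0% with at least 50 reads, 39.8% with equal numbers of the strongest peaks, 47.05% without distal chromosome 12 and 36.2% to 41.4% in library lists. That of NPC was 31.7% and became 25.7%, 32.5%, 39.0% and 27.8% to 31.0%, so the higher share in mESC nearly vanished at equal numbers. Median lengths of 377 and 402.5 bp became 387 and 415 bp with at least 50 reads, 482 and 575 bp in matched peaks and 180 to 193 and 203 to 206 bp in library lists. The relative ratio was 0.776 to 0.846 for chromosome 12 and 1.07 to 1.11 for chromosome 15 in library pairs.

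The median log2 ratio of -0.46 became 0 by construction when centred, -0.51 with totals that leave out chromosome 12, -0.23 with reads per peak, -0.50 without distal chromosome 12 and -0.50 with totals that leave out peaks without allelic reads. The 140 NPC-higher and 2397 mESC-higher pairs became 645 and 727 when centred, 560 and 5283 at 1.5-fold and 5 and 166 at 4-fold, and 1192 and 2477 with reads per peak. Windows higher in NPC numbered 131 at 2 Mb and 153 to 320 in library pairs; mESC library 1 gave fewer, 153 and 195. Those higher in mESC numbered 278 at 0.5 Mb, 50 at 2 Mb and 149 to 203 in library pairs. The 336 mESC and 802 NPC clusters became 105 and 218 at gaps of 5 kb, 645 and 1614 at 25 kb, and 546 and 1364 with peaks absent from the other IDR list alone; the NPC clusters became 265 at equal numbers of one-line peaks. With at least 50% of the one-line peak covered, deltaFT library 1 held 4.19% of mESC-only and 65.1% of NPC-only peaks and the TXY wild-type list without dox 18.8% of NPC-only peaks. The cause of these moves was not tested. Settings without distal chromosome 12, with totals that leave out peaks without allelic reads, the clusters without 1 library and those at equal numbers were added after the data were seen. Of 112 alternatives over 21 results, 54 moved a value by less than its error or a count by less than 1.5 times. Single pairs have no library counts, and 24.3% to 50.8% of peaks in the weakest decile recurred within a line; the part of depth in this was not tested.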
